A study of Drosophila melanogaster with 2 samples.

Results

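The EGFR and Ras pathway is represented here by 10 listed genes of 13945 protein-coding genes on the chromosome arms that carry peaks: Egfr, spi, rho, aos, aop, pnt, Ras85D, Raf, drk and sty. They were chosen by name, and every Spps-GFP summit inside the gene span or within 2 kb to either side was assigned to them in each of 4 peak lists. The data were ChIP-seq of Spps, an Sp/KLF family zinc finger protein known to act at Polycomb response elements, tagged with GFP at its C-terminal end in 1 transgenic Drosophila melanogaster line with chromatin pulled down through the tag (anti-GFP) from whole 0 to 12 h embryos. The 2 samples are biological replicates of 1 group, so there is no contrast between conditions, and whole embryos mix all cell types. The lists were 30000 peaks for each replicate, 30000 called on both replicates together (the pooled list) and 3260 reproducible peaks (the IDR list, from the irreproducible discovery rate), all made against the same 1 control. All 3260 IDR summits were the 3260 strongest of the pooled list, and read depth is unknown. The signal given for a peak is the authors' own value, and its meaning is not given in the sources used here. It is scaled differently in each list, so it is read only within a list. Rank 1 is the strongest peak of its list.

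EGFR signalling starts when the membrane protease Rhomboid (rho) cleaves the ligand precursor Spitz (spi), which then binds the receptor tyrosine kinase Egfr. The adaptor Drk carries the signal to Ras (Ras85D), which activates the kinase Raf and through it the MAP kinase, and in the nucleus the ETS activator Pointed (pnt) and the ETS repressor Anterior open (aop, also known as Yan) read it out. Argos (aos) is a secreted inhibitor that sequesters Spitz, and Sprouty (sty) is an intracellular inhibitor. In the embryo the pathway is known for patterning the ventral ectoderm, among other tissues.

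Spps-GFP summits lay at 7 of the 10 genes, mostly in introns and often several to a gene. The genes with IDR summits were spi, aos, Egfr, drk, Raf, pnt and aop (70%, exact Clopper-Pearson 95% interval 34.8 to 93.3), against 26.0% of all protein-coding genes. The genes without one were rho, Ras85D and sty. All 7 also held a summit inside the span itself, where 8.83% of all protein-coding genes did. The 10 genes are long, 9 of them in the top 25% of genes by length (over 5.0 kb), and of those genes 40.5% had an IDR summit in the span or its flanks and 25.6% had one inside the span. Intervals cover counting only, over genes here and over summits where summits are counted. Those over summits treat the summits of a gene as independent, which was not tested. No test was run, since the members were chosen with results of these data known.

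The sequence under the strongest summit of aos, Raf, aop, spi and pnt is shown so that the leading site of each of these genes can be read directly; those of drk and Egfr are not shown. Each stretch runs 100 bp to either side of the pooled summit on the plus strand of RefSeq release 6, which has the coordinates of dm6. Capitals mark any match, on either strand, to 1 of 10 short strings described further on.
aos, chr3L:16480468-16480668, in an aos intron: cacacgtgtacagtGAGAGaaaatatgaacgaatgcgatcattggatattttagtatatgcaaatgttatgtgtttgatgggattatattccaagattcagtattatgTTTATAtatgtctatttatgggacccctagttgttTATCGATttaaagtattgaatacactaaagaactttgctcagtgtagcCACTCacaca
Raf, chrX:2297626-2297826, in a Raf intron: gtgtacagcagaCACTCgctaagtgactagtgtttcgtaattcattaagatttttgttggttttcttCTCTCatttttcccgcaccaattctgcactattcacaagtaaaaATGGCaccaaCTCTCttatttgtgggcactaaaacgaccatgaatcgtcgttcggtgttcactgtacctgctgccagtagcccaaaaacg
aop, chr2L:2180157-2180357, intergenic, upstream of aop: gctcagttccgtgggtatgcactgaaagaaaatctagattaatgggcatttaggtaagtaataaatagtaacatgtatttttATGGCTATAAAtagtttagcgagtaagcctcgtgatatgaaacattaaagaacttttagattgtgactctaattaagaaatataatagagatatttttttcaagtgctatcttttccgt
spi, chr2L:19575699-19575899, in a spi intron, upstream of the middle spi start site: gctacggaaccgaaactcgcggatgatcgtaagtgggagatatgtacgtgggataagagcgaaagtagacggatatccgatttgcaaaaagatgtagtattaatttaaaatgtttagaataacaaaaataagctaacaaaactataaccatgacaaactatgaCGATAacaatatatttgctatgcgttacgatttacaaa
pnt, chr3R:23326420-23326620, in a pnt intron: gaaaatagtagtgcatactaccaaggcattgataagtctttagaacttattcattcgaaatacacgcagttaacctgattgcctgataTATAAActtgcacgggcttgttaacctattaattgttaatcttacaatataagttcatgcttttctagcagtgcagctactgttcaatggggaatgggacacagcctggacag
The aos stretch holds matches to 5 of the strings, the pnt stretch 1 match to the TATA string and the spi stretch 1 match to the BEAF-32 string.

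The 30 IDR summits at the 10 genes were unevenly spread, with 9 at pnt, 8 at Raf, 4 at aop, 3 each at aos and Egfr, 2 at spi and 1 at drk. Of all protein-coding genes, 0.0574% (8 genes) had at least 9 IDR summits and 0.100% (14 genes) at least 8, so pnt and Raf are 2 of those 14. At least 4 summits were found at 0.782% of all protein-coding genes, at least 3 at 1.89% and at least 2 at 6.11%. Those shares cover genes of every length, whereas aop, aos, Egfr and spi are all in the top 25% by length. Both pnt (55.9 kb) and Raf (48.4 kb) are long, and among the 461 protein-coding genes of 40 kb or more, 12 (2.60%) had at least 8 IDR summits, with a median of 1. Counted per length, the members held 11.3 IDR summits per 100 kb searched, against 2.77 over the union of all protein-coding genes and their flanks. The density was 17.4 per 100 kb in aos, 15.3 in Raf, 15.2 in aop, 15.02 in pnt and 14.9 in spi, and lower in drk (8.61) and Egfr (7.22).

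**Figure D1:**
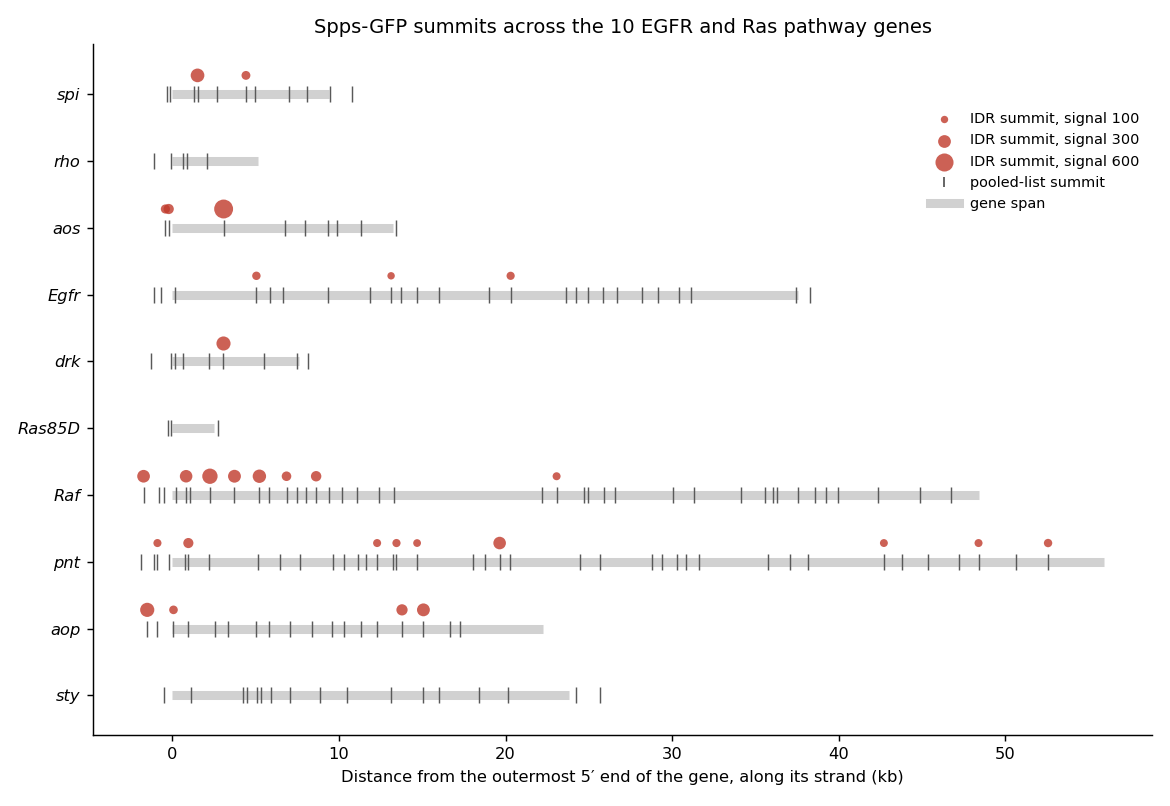
Spps-GFP summits at the 10 genes, placed by distance from the outermost 5′ end along the gene's strand (kb, horizontal) with 1 gene per row. Grey bars are gene spans, ticks are pooled-list summits and red discs are IDR summits with area scaled to IDR signal. At Raf 7 of the 8 discs fall near its 5′ end, and rho, Ras85D and sty have ticks only. The 9 at pnt reach from its 5′ end to near its 3′ end, with a gap of 23062 bp in between.

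**Figure D2:**
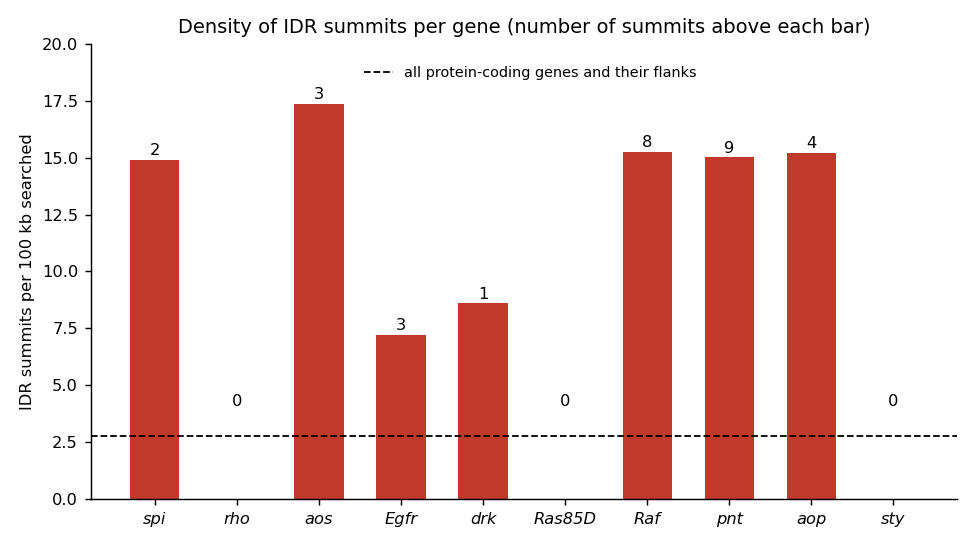
IDR summits per 100 kb searched (vertical, linear from 0) for each of the 10 genes, with the number of summits above each bar and a dashed line at 2.77 for all protein-coding genes with their flanks. The 7 genes with a summit stand between 7.22 and 17.4, and rho, Ras85D and sty are at 0.

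Among the genes that make and limit the ligand, aos carried the strongest summit of all 10 genes. It lay in an intron of aos, 3082 bp downstream of the start site, at chr3L:16480411-16480708, with a signal of 658 and rank 68 in the IDR list. Its signal was 394 in replicate 1 (rank 71) and 263 in replicate 2 (rank 66), and the summits of both replicates lay within 6 bp of the pooled one. The gene CG33158 runs over the whole aos span on the other strand, so this intron belongs to both genes. A pair of weaker summits lay 214 and 413 bp upstream of the aos start site, 199 bp apart, with signals of 193 and 153. Replicate 1 separated the pair (signals 117 and 91.9), whereas replicate 2 had a single summit between them with a signal of 73.9.

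The ligand gene spi had both of its IDR summits at start sites. One lay 212 bp upstream of the middle of its 3 annotated start sites, in an intron of the longest transcripts (chr2L:19575680-19575920), with a signal of 345 and rank 345. Replicate 1 gave 211 (rank 350) and replicate 2 gave 134 (rank 365). The other lay 283 bp upstream of the innermost start site, with a signal of 145. For this one replicate 1 gave 92.4 and replicate 2 gave 53.6. A summit 116 bp upstream of the outermost start site fell just below the IDR list, at pooled rank 3471 with a signal of 96.3, so each of the 3 start sites had a pooled summit upstream of it. The outermost one ranked 2579 in replicate 1 and, at the nearest summit, 8405 in replicate 2. That replicate 2 summit was 108 bp away, and lay 162 bp from the start site of the neighbour msb1l and 224 bp from that of spi. The protease gene rho, which lies inside Ptp61F, had 5 pooled summits, the strongest 655 bp downstream of its start site with a pooled signal of 74.4 and rank 5192. For that site the nearest replicate summits ranked 6201 in replicate 1 and 4223 in replicate 2.

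At the receptor gene Egfr the summits were weak but repeated. Its 3 IDR summits were all intronic and spread over 15.3 kb, with signals of 130, 124 and 102, at ranks 2142, 2324 and 3218 of the 3260. Replicate 1 gave 85.0, 73.3 and 68.2 at these sites, and replicate 2 gave 48.4, 47.4 and 25.1. The last of these ranked 7634 in replicate 2, far below the others. The nearest annotated start site to each belonged to a gene nested in or near Egfr: lncRNA:CR44725, CG30283 and CG30286. At the outer Egfr promoter the pooled list held a summit 135 bp downstream of the start site, in the 5′ UTR, with a signal of 65.4, ranking 11847 in replicate 1 and 3427 in replicate 2.

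Of the genes that pass the signal on inside the cell, drk had 1 IDR summit and Ras85D none. The drk summit (chr2R:13499646-13499864, signal 367, rank 302) was intronic, 2519 bp from a drk start site and 847 bp from that of mars, a neighbouring gene that overlaps drk on the opposite strand. Replicate 1 gave 242 there and replicate 2 gave 119. Ras85D had 3 pooled summits, the strongest 48 bp upstream of its start site with a signal of 74.4 (rank 5191). That site ranked 3014 in replicate 2, inside the length of the IDR list, and 6146 in replicate 1, outside it. The gene Rlb1 starts on the opposite strand next to Ras85D, so the site is shared between neighbouring promoters.

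Raf had a close array of summits near its 5′ end. Its 8 IDR summits included 7 from 1723 bp upstream of the outer start site to 8634 bp downstream of it, a stretch of 10.4 kb, and 1 more at 23.1 kb with a signal of 118. The strongest (chrX:2297584-2297846) had a signal of 433 and rank 201, with 271 in replicate 1 and 160 in replicate 2. The other 5 at or downstream of the start and within this stretch had signals of 331, 305, 289, 200 and 169. Replicate 1 gave 189, 185, 175, 128 and 101 for these, and replicate 2 gave 144, 114, 115, 71.6 and 68.4, so both replicates put the last pair lowest. The summit with a signal of 289 lay in the Raf 5′ UTR, 831 bp downstream of the start site, and the rest of these were intronic. The upstream summit (signal 297) lay 332 bp from the start site of CG2865, the neighbouring gene on the opposite strand.

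Spacing within Raf was close and even. Successive summits from the 5′ UTR inwards were 1429, 1473, 1495, 1628 and 1778 bp apart. Over the whole IDR list, summits joined with gaps under 2 kb gave 2828 runs (single summits included), and this run of 6 was the only one of at least 6; 2 others reached 5, at Pgk and Bacc and at CG1677 and CBP. The 2 kb gap was chosen after these values were seen, as were the length of 40 kb above and the share of GAGAG away from start sites given further on. Further in, the annotation places an 8.53 kb Tirant retrotransposon at chrX:2308848-2317374, and no summit of any of the 4 lists lay in it. How reads from such repeated elements were placed is unknown, as is whether this line carries the element. The blank therefore does not show that Spps was absent there. At the promoter of the outer Raf start site itself the pooled list had a summit 236 bp downstream with a signal of 49.2, which replicate 1 ranked 7099 and the replicate 2 list did not hold within 200 bp.

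The ETS gene pnt had the most IDR summits of the 10 genes, of moderate strength. The strongest (chr3R:23326419-23326591, signal 291, rank 527) lay in an intron, 12.2 kb upstream of the middle of the 3 pnt start sites, with 186 in replicate 1 and 101 in replicate 2. It belonged to a group of 4 summits within 7.35 kb, the others with signals of 111, 123 and 119. The summit with 123 had 53.9 in replicate 1 and 72.7 in replicate 2. The summit with 119 lay 70 bp from the start of lncRNA:CR46090, a noncoding gene inside pnt. The outer start site was flanked by summits 965 bp downstream (signal 189) and 890 bp upstream (signal 120). The 3 remaining summits lay toward the 3′ end with signals between 115 and 129, the last of them 1633 bp downstream of the innermost start site. No IDR summit lay within 500 bp of a pnt start site, and the strongest pooled summit in such a window lay 227 bp upstream of the middle one, at rank 3997 with a signal of 88.4.

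The antagonist gene aop had 4 IDR summits in 2 pairs. The outer pair flanked the start site of the longer transcripts: 1503 bp upstream, in intergenic sequence (chr2L:2180131-2180378, signal 369, rank 296), and 73 bp downstream, in the 5′ UTR (signal 137). The inner pair lay in the long intron, 2154 and 3439 bp upstream of the shorter transcripts' start site, with signals of 304 and 233. In replicate 1 the sites gave 214, 87.0, 153 and 135 in the order named, and in replicate 2 they gave 153, 23.2, 149 and 98.5. The 5′ UTR site ranked 1957 in replicate 1 and, at the nearest summit, 8792 in replicate 2. Replicate 2 held another summit within 200 bp of this site, 144 bp away, with a signal of 48.5 and rank 2410, so its replicate 2 value depends on which of them is matched.

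The feedback inhibitor gene sty had 17 pooled summits and no IDR summit within 2 kb, but 1 with flanks of 5000 bp and 2 when each summit went to the nearest protein-coding start site. The strongest was 67 bp downstream of 1 of its 2 start sites, in the 5′ UTR, with a pooled signal of 78.0 (rank 4825), 48.9 in replicate 1 (rank 4998) and 28.6 in replicate 2 (rank 5979). The 3 genes without an IDR summit thus had their strongest pooled summits at ranks 4825, 5191 and 5192, below the end of the IDR list at 3260. Since each list stops at 30000 peaks, a gene missing from a list is not thereby unbound. All 10 genes had a pooled summit, against 76.3% of protein-coding genes, and all 10 had one within 500 bp of a start site, against 55.1%. Most of the 10 genes are long, and these pooled-list shares were not computed for long genes alone.

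**Figure D3:**
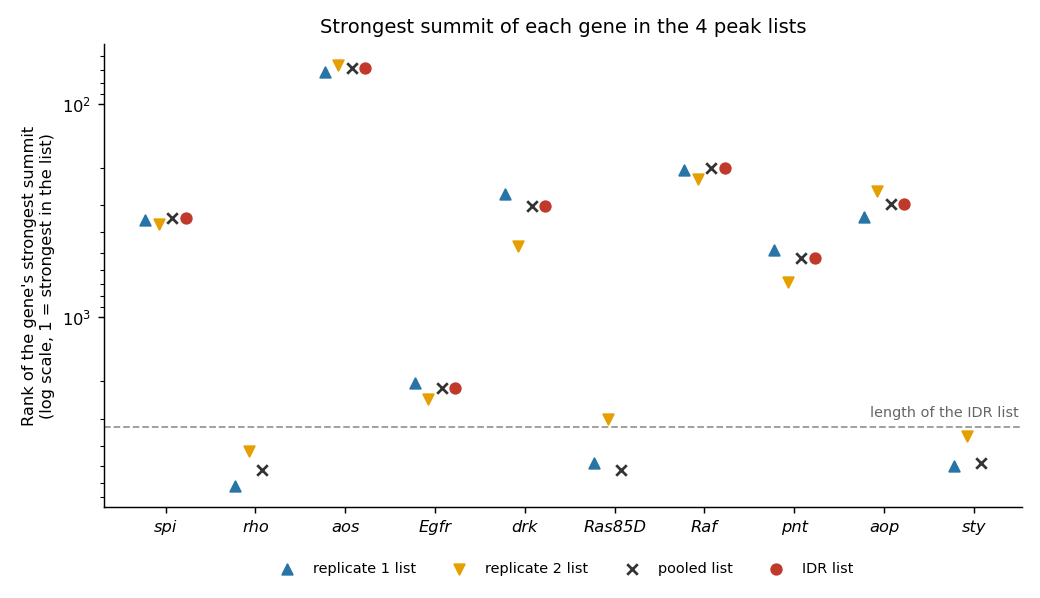
Rank of the strongest summit of each gene (vertical, log scale, 1 the strongest) in the replicate 1, replicate 2, pooled and IDR lists, with a dashed line at the 3260 peaks of the IDR list. The genes spi, aos, drk, Raf and aop stand between ranks 66 and 467 in every list, pnt between 483 and 688, Egfr between 2028 and 2421, and rho, Ras85D and sty below the line except for Ras85D in replicate 2.

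Promoters were not where most of these summits lay. Only spi, aos and aop held an IDR summit inside 500 bp of one of their start sites (30% of the 10 genes, exact Clopper-Pearson 95% interval 6.67 to 65.2), against 13.6% of all protein-coding genes and 18.5% of those in the top 25% by length. Among the 1000 strongest IDR peaks spi alone did, where 4.53% of genes did, and with a window of 1000 bp 5 of the 10 did, where 15.7% did. Of the 30 summits, 7 (23.3%, exact 95% interval 9.93 to 42.3) were within 500 bp of any annotated start site, 5 of them at the gene's own, against 45.8% of all IDR summits. A further 20 lay in introns, 2 in intergenic sequence and 1 in an exon. Of the 30, 15 (50%, 31.3 to 68.7) lay over 2 kb from any start site, against 32.5% of all IDR summits, and the median distance was 1893.5 bp against 683 bp. The nearest start site belonged to the gene itself for 20 of the 30. Long genes hold more intronic sequence, and the part of gene length in these shares was not tested.

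Both replicates held all of the members' IDR summits. The IDR list was made from the replicate and pooled lists, so this follows largely from its making and says little about the members. Each of the 30 had a summit within 200 bp in both replicate lists, against 3251 of all 3260 IDR summits, with median offsets of 9.5 bp in replicate 1 and 13.5 bp in replicate 2. By the nearest summit, 24 of the 30 were within the first 3260 ranks of both replicates, and with any summit within 200 bp 25 were. Beyond rank 3260 by the nearest summit were 2 of the 30 in replicate 1 and 4 in replicate 2. Of all matched IDR summits 10.4% were beyond it in replicate 1 and 16.4% in replicate 2. Spearman's rho between the replicates was 0.855 over the 30 summits and 0.749 over all matched IDR summits, a description over sites that share the 2 libraries and the control. The 2 promoter summits of aos matched the same replicate 2 summit (signal 73.9), so 2 of the 30 pairs share that value. The median IDR signal was 179 at the members and 155 over the IDR list. Of the 144 pooled summits at the 10 genes that ranked below the IDR list, 68 (47.2%, exact 95% interval 38.9 to 55.7) had a summit in both replicates, against 44.2% of all 26740 pooled summits below it.

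**Figure D4:**
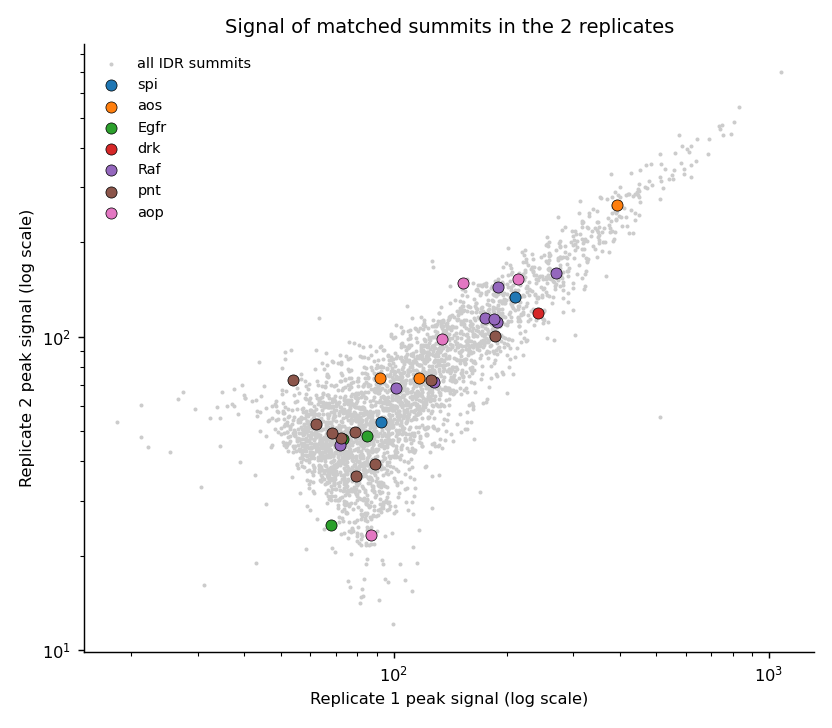
Peak signal in replicate 1 (horizontal) and replicate 2 (vertical), both on log scales, for IDR summits matched within 200 bp. Grey points are all matched IDR summits and coloured points the 30 at the pathway genes. The strongest aos summit stands at 394 and 263, and the aop 5′ UTR summit, drawn at its nearest replicate 2 match, at 87.0 and 23.2.

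The short strings searched were chosen for factors known to act at fly promoters or Polycomb response elements and for the ETS factors of the pathway. On either strand and within 100 bp of the summit, GAGAG, the core bound by GAGA factor, occurred at 15 of the 30 summits (50%, exact 95% interval 31.3 to 68.7), against 21.2% of all IDR summits. Away from start sites (over 500 bp) it occurred at 12 of 23 member summits (52.2%), against 22.7% of 1768 IDR summits. Counting overlapping matches, it was most repeated at a Raf summit (9 matches, the one with a signal of 169) and at the summit 890 bp upstream of pnt (7 matches), and Raf, aop, aos, Egfr, pnt and spi each had at least 1 summit with it. Within 50 bp it was found at 7 of the 30 (23.3%), against 8.83%. The interval for GAGAG treats the 30 summits as independent, although 9 of them lie at pnt and 8 at Raf.

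The other strings were found at fewer of the members' summits. GCCAT, the core bound by Pho, was found at 6 of the 30 (20%) against 24.0% of all IDR summits, and GAGTG, the Zeste core, at 8 (26.7%) against 23.9%. TATAAA, the TATA box, was found at 14 (46.7%) against 40.8%, and GTGTGTG, a repeat bound by Combgap, at 3 (10%) against 5.15%. CGATA, the BEAF-32 core, was found at 4 (13.3%) against 25.9%, and the overlapping DRE core ATCGATA at 1 (3.33%, the strongest aos summit) against 6.23%. CAGGTAG, bound by the early embryonic factor Zelda, was found at 2 (6.67%) against 0.798%, 1 in aop and 1 in Raf. The Sp/KLF core, GGGCGGG or GGGCGTG, was found at 1 (3.33%, an Egfr summit) against 1.35%. The ETS string ACCGGAA was found at 0 of 30 summits, which allows a share of up to 10%, against 1.75% of all IDR summits. The strings for GAGA factor and Zeste share letters and can overlap. A match describes letters only. The GC content of these windows had a median of 36.6% at the members and 32.8% over the list.

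Genes from a wider list of the pathway also carried summits. Of 35 further symbols 34 matched the annotation, the other being an older name of RasGAP1, and 20 of the 34 (58.8%, exact 95% interval 40.7 to 75.4) carried an IDR summit in the span or its 2 kb flanks, against 26.0% of all protein-coding genes. At promoters 9 of the 34 (26.5%, 12.9 to 44.4) did, against 13.6%. With the span alone 13 did, against 8.83%. Most of the 34 genes are over 5.0 kb long. Among all protein-coding genes of that length the shares were higher, at 40.5%, 18.5% and 25.6% in the same order. The part of gene length in the wider counts was not tested. The list was drawn up by role with earlier results of these data known, so its counts are a description.

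By role, the ligand genes and those that process ligands had summits at 5 of 6: S (Star, which escorts Spitz to the site of cleavage; 4 summits), Krn and vn (ligands), ru and stet (Rhomboid proteases), with grk, the oocyte ligand, at 0. Adaptor, phosphatase and exchange factor genes had 2 of 4, Shc and dos, and not csw or Sos. Of the Ras GTPases and the proteins that switch Ras off, RasGAP1 and Nf1 had summits and Ras64B did not. Of the kinases, scaffolds and 14-3-3 proteins 5 of 8 had 1 summit each (cnk, ksr, Src42A, 14-3-3epsilon and 14-3-3zeta), and the MAP kinase kinase gene Dsor1, the MAP kinase gene rl and Sur-8 had none. The ksr summit lay outside ksr, 1493 bp from its start site, at the promoter of CG31550. That of 14-3-3epsilon lay 370 bp from its own start site and nearer to that of CG7156. The gene rl, 54.5 kb long, was the only one of the 34 with no pooled summit either. It lies at chr2R:1071462-1125927, and how well reads can be placed there is unknown, so rl is not thereby unbound. Negative regulators had 3 of 6, with IDR summits at ed (4 summits), Mkp3 and Spred and only pooled ones at kek1 (1), Cbl (2) and PTP-ER (2). Nuclear effectors had 3 of 5: cic, the repressor that the pathway turns off, with 6 summits, edl, which binds the ETS proteins of the pathway, with 3, and phyl with 1, while sina and ttk had none. Neither the Sevenless receptor gene sev nor its ligand gene boss had any.

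The strongest of these lay upstream of RasGAP1, 676 bp from its start site (chr3L:9855811-9856163), with a signal of 714 and rank 52, above the strongest aos summit. It had 380 in replicate 1 and 330 in replicate 2. Next came an edl intron (515), Shc 125 bp upstream of its start site (470), an S intron (412), a vn intron (327) and a site 710 bp upstream of ed (243). The summits assigned to cnk (503) and Nf1 (470) lay at the promoters of their neighbours l(2)k01209 and CG43116, so 2 of the 8 strongest were not at the pathway gene itself. The strongest of the 6 cic summits lay in an intron with a signal of 176, where replicate 1 gave 96.2 and replicate 2 gave 79.7.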

How the data were processed

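The files were peak lists on dm6, per the labels. Per the deposited file listings, a replicate list comes from 1 alignment and 1 control shared by both, the pooled list from both alignments, and the IDR list from these 3. For the caller, aligner and IDR threshold, nothing is given in the sources used here. The peak signal was deposited by the authors on a scale that differs between lists, and the summit offset is another deposited value, the distance from peak start to summit. Read depth is unknown. The labels give a size range of 200 to 800 bp.

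The annotation was Ensembl 115 (BDGP 6.54), its transposable elements left out, and the sequence RefSeq release 6, whose arms contain all peaks and genes. Positions are 1-based. A summit belonged to a gene within its span or 2 kb to either side, a promoter was 500 bp to either side of any annotated start site of the gene, a summit in several classes counted as promoter before exon and exon before intron, and replicate summits matched within 200 bp. Strings were searched on both strands.

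The members, the wider list and the strings were chosen with earlier results of these data known. All 10 members are named, as is each wider gene with an IDR summit, with values for the strongest. Genes named as neighbours, and genes of the wider list without a summit, follow from position or from the list. The gene counts and the string search were checked on simulated data. Exact Clopper-Pearson 95% intervals cover counting only, and the limit for a count of 0 is 3 counts. Alternatives were other lists, windows, assignments, match distances and each replicate alone. The software was Python 3.11.15, NumPy 2.4.6, pandas 2.3.3, SciPy 1.17.1 and matplotlib 3.10.9.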

Additional observations from a re-analysis of the deposited data

How the results depend on the processing

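No paired analysis was possible because there is 1 group. The number of the 10 genes with a summit stayed within 1.5 times of 7 under every alternative run, from 6 among the 1000 strongest IDR peaks to 10 in the full pooled list. Since no count can pass 10, a longer list could not have moved the count beyond that limit. As the list grew from the 1000 strongest peaks to the pooled list, the summits at the 10 genes numbered 12 and 174 (30 in the IDR list), the genes of the wider list with a summit 9 and 33, the share of all protein-coding genes 9.70% and 76.3%, and the members with a promoter summit 1 and 10. A promoter window of 1000 bp gave 5 members. With the gene span alone 13 wider genes and 8.83% of all genes had a summit, and with the nearest protein-coding start site only 16.6% of all genes did, where drk lost its summit to mars, Egfr kept 1 of 3 and sty gained 2, so that the count of 7 held sty in place of drk. With flanks of 5000 bp sty gained 1 and the count was 8. With each replicate alone, cut to 3260 peaks, the members with a summit numbered 7 to 8, their summits 29 to 32, the members with a promoter summit 3 to 4, the wider genes 18 to 19 and the share of all genes 25% to 26.6%. The member added without replicate 1 was Ras85D. Windows of 50 bp and 200 bp changed string counts over 1.5 times for GAGA (7 within 50 bp), Zeste (3 and 16), BEAF-32 (2 within 50 bp), Zelda (1 within 50 bp), TATA (6 within 50 bp), Pho (14 within 200 bp), the GT repeat (7 within 200 bp) and the Sp/KLF core (2 within 200 bp). The shares of all IDR summits moved with the window too. Within 200 bp they were 46% for Pho, 49.4% for Zeste, 16.1% for the GT repeat and 5.12% for the Sp/KLF core. The members' shares within 200 bp were 46.7%, 53.3%, 23.3% and 6.67%. Within 50 bp the shares of all IDR summits were 8.83% for GAGA, 12.5% for BEAF-32, 0.337% for Zelda and 26.4% for TATA. The lists hold no read counts, so signal near the end of each list has an unknown error.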
